A study of Mus musculus with 9 samples.

Results

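Of the 26083 long non-coding RNA (lncRNA) transcripts in the deposited table, 946 were single-exon transcripts that the authors assembled from these libraries and placed on the strand opposite to a named gene. They were chosen by fields of that table alone, which say that a transcript was assembled rather than known, that its class code was x (antisense to a gene), and that it had 1 exon. The libraries came from the liver of C57BL/6 mice (C57BL/6J in the study's methods), 8 weeks of age and fed for 5 weeks, with 3 libraries in each of 3 groups. Pair-fed mice (PF) had an isocaloric control liquid diet, alcohol-fed mice (AF) had a Lieber-DeCarli diet with alcohol, and AF+MNA mice had the same diet plus intraperitoneal MNA at 50 mg/kg, a compound that the labels do not spell out. The labels of the 3 AF+MNA libraries write the number of the C57BL strain differently from one library to the next, so their strain entry was not used. The libraries were depleted of ribosomal RNA and kept the strand of each RNA, so that a transcript and the gene facing it could be measured apart. Levels are in FPKM, fragments scaled to the length of the transcript and to the fragments sequenced.

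Antisense transcripts are copied from the strand opposite to a gene, and some are known to act on that gene through its promoter, its splicing or its mRNA. Transcripts with no splice junction rest on the strand of the library alone, while in spliced ones the splice sites also have a direction. In ribosome-depleted libraries, unspliced precursor RNA is also sequenced, so introns and the stretches just after a gene give reads too. These points are background and were not tested here.

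Sequences are shown for 6 of the transcripts over coding exons of their opposite genes, because they show which coding bases an antisense transcript runs across. Each is read 5′ to 3′ on the strand of the antisense transcript, that is, as the reverse complement of the gene's coding exon, and capitals mark the bases that the assembled transcript covers. They are taken from the GENCODE M21 transcripts of the mouse build GRCm38, and no sequence of an intron was used here.
Opposite Prepl (a serine hydrolase of the prolyl oligopeptidase family), a whole coding exon at chr17:85066148-85066297, plus strand: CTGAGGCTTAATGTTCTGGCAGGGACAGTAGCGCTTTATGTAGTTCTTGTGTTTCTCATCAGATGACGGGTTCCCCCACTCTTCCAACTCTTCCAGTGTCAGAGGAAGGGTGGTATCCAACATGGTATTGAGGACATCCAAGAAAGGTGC
Opposite Gnat1 (the alpha subunit of rod transducin), chr9:107678089-107678243, plus strand: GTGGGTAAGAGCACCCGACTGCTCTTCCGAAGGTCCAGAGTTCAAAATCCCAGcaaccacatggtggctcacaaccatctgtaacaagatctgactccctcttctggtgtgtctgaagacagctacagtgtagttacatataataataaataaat
Opposite Aurka (a mitotic kinase), chr2:172357081-172357240, plus strand: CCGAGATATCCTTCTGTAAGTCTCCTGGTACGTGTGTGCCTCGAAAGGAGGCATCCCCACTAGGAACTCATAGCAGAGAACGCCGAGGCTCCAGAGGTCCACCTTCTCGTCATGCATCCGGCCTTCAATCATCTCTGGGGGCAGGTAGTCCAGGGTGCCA
Opposite Slc10a1 (the sodium-dependent bile acid transporter of hepatocytes), chr12:80955949-80956108, plus strand: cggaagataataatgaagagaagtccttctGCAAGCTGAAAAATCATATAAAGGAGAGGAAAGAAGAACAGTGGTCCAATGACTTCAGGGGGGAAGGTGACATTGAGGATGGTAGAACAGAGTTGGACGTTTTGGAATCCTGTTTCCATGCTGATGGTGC
Opposite Srrm4 (a splicing regulator of neurons), chr5:116447254-116447364, plus strand: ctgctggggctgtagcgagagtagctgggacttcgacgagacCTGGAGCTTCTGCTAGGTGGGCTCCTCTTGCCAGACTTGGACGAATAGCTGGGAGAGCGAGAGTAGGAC
Opposite Cyp2c37 (a cytochrome P450 of the liver), chr19:39993725-39993884, minus strand: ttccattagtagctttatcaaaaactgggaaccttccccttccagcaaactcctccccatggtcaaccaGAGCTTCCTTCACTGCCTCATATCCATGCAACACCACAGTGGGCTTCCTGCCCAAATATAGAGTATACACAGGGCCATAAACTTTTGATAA

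The Prepl stretch lies whole inside its antisense transcript, which runs on through 435 coding bases of Prepl in all. The Gnat1 stretch shows the end of its antisense transcript inside an annotated coding exon, of which 53 of 155 bases are covered. That exon reads as a B2 element, a short interspersed repeat of the mouse genome, and its 25-base words also occur in transcripts of 1529 other genes. The Slc10a1 stretch, which belongs to MSTRG.10208.1, shares no such word with another gene, while the Cyp2c37 stretch shares some with 2 other genes. All 67 words of the Cyp2c37 exonic bases that MSTRG.22507.1 covers are shared with those 2 genes. The other transcript opposite Slc10a1, MSTRG.10207.1, shares 74 of its 202 words with 2498 other genes, and MSTRG.30362.1, opposite Echdc2, shares 33 of 291 with 1097. Of the 436 transcripts with at least 25 covered exonic bases, 343 shared no 25-base word of those bases with another gene, 93 shared some and 13 shared some with at least 100 other genes. How reads from shared stretches were placed is not given in the sources used here, and their part in the levels was not tested.

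Most of these transcripts lay inside a gene on their own strand as well as opposite to another. When each was placed on GENCODE M21, 641 of the 946 (67.8%) were inside an intron of a gene on their own strand, and 159 (16.8%) began within 5 kb after the end of one. A further 14 lay within 5 kb before such a gene, 10 overlapped one of its exons, and 122 (12.9%) had no gene on their own strand within 5 kb. The gene on their own strand was protein-coding for 678 of them.

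**Figure D1:**
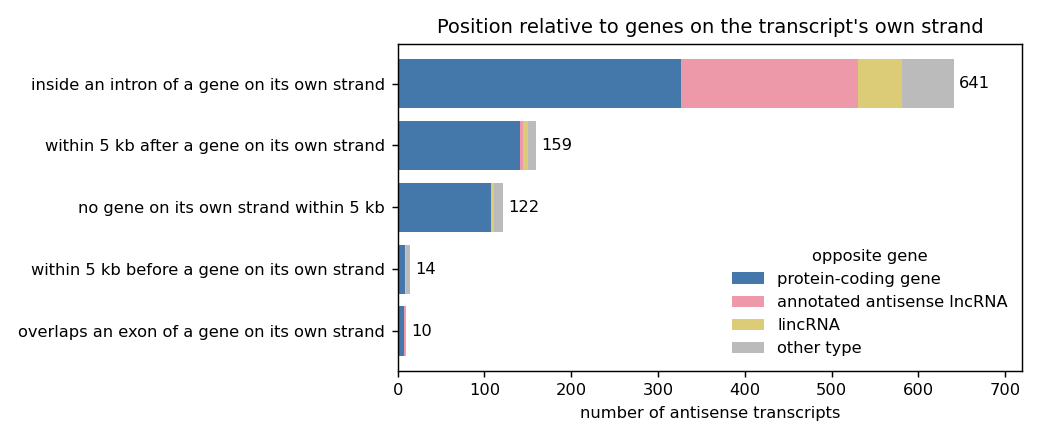
Number of antisense transcripts (horizontal axis) by their position relative to genes on their own strand (rows), with bar colours for the type of the opposite gene. The 641 transcripts inside an intron of a gene on their own strand outnumber all other positions together, and nearly all of those opposite to an annotated antisense lncRNA are among them.

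The opposite genes numbered 624, of which 474 faced a single transcript. By type, 590 transcripts faced a protein-coding gene, 209 an annotated antisense lncRNA and 62 a long intergenic RNA. Of the 209 that faced an annotated antisense lncRNA, 205 lay inside an intron of a gene on their own strand. For these the name antisense refers to a lncRNA that is itself antisense to the gene in whose intron they lie. Against the opposite gene, 766 transcripts lay within its bounds, 94 over its 3′ end, 58 over its 5′ end and 28 spanned it. In all, 462 overlapped an exon of that gene in GENCODE M21, and 246 overlapped coding bases. Of the 484 without an exon overlap, 482 were inside an intron of a gene on their own strand, so that they were intronic on both strands. The class code x is given for exonic overlap, and the annotation behind it is not given in the sources used here.

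The 3 genes facing the most transcripts show this arrangement. Pard3bos1, an antisense RNA of Pard3b, faced 16 transcripts with mean levels over the 9 libraries of 0.164 to 0.617 FPKM, all inside introns of the polarity gene Pard3b on chromosome 1. Gm20388, a read-through locus on chromosome 8, faced 15 transcripts of 0.171 to 0.522 FPKM that lay inside introns of several genes, among them 1190005I06Rik, Cbfa2t3 and Klhdc4. Gm15261 on chromosome X faced 12 transcripts of 0.178 to 0.557 FPKM inside introns of the GTPase-activating protein gene Arhgap6. In the same region, 3 transcripts inside introns of Gm15261 were listed as antisense to Arhgap6, so both genes served as host on one strand and as opposite gene on the other.

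Levels were low. The mean over the 9 libraries had a median of 0.297 FPKM and a highest value of 10.8 FPKM, and 227 transcripts reached 0.5 FPKM and 58 reached 1 FPKM. The length had a median of 410.5 bases and ranged from 201 to 49425. Detection, meaning a value above 0, was patchy: 527 transcripts were detected in 1 to 3 libraries and 29 in all 9. Assembled single-exon transcripts inside introns had a median mean level of 0.264 FPKM and intergenic ones 0.244 FPKM, and 1.10% and 1.89% of them were detected in all 9 libraries beside 3.07% of the single-exon antisense transcripts. Known single-exon lncRNAs had a lower median, 0.0927 FPKM, while 18.3% of them were detected in all 9 libraries. The 66 spliced antisense transcripts of the same assembly differed in kind, with a median of 0.920 FPKM and detection of 74.2% of them in all 9 libraries.

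The highest value of a transcript in any library was held in a narrow band, with quartiles of 1.49 and 1.93 FPKM. In 738 of the 946 transcripts (78.0%) the highest coverage in a library, as mean reads over each base, was at least 10, beside 16.1% of known single-exon lncRNAs. Coverage times length, divided by the read length that the values imply, was taken as the reads behind each value. A value above 0 rested on a median of 25 reads, with quartiles of 10 and 64.7. These are estimates and not read counts, so the error of each comparison was taken from the replicate libraries.

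AF replicate 3 and AF+MNA replicate 1 stood apart from the other libraries of their groups. Of the 946 transcripts, 289, 380 and 350 were detected in the PF replicates 1 to 3, 336, 365 and 508 in those of AF, and 504, 290 and 326 in those of AF+MNA. Their summed level was 267, 411 and 399 FPKM in PF, 377, 396 and 771 FPKM in AF, and 666, 232 and 318 FPKM in AF+MNA. AF replicate 3 held the highest value of 286 transcripts and AF+MNA replicate 1 that of 224. The same 2 libraries stood apart for intronic transcripts (summed levels of 9331 and 8854 FPKM, against 2408 to 4850 FPKM in the other 7) and for intergenic ones. Known single-exon lncRNAs and spliced antisense transcripts showed it weakly at most, with 51.8% to 54.9% and 87.9% to 95.5% of them detected in each library. Of the known ones, most were detected in AF+MNA replicate 1 (54.9%) and AF replicate 3 (54.6%), then AF replicate 1 (53.9%), whose summed level was the highest (3360 FPKM). Spliced ones summed to 89.6 FPKM in AF replicate 3, the highest, and to 66.3 FPKM in AF+MNA replicate 1. Counts without these libraries are given with the comparisons, and the cause was not tested. The liver label fitted the marker genes: 6 hepatocyte markers summed to 15879 to 23773 FPKM in every library, and 5 lymphocyte markers to 0.33 to 1.28 FPKM. The sum of 5 endothelial markers was 19.7 to 24.3 FPKM in PF and 24.9 to 36.2 FPKM in AF, and that of 4 cholangiocyte markers was 2.46 FPKM in AF replicate 3 and 1.14 to 1.53 FPKM in the others. Kupffer cell markers summed to 19.95 and 22.9 FPKM in AF replicates 1 and 3 and to 28.7 to 38.1 FPKM in the others, stellate cell markers to 7.82 to 16.2 FPKM and erythroid markers to 216 to 519 FPKM, and the part of these cells in the results was not tested.

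**Figure D2:**
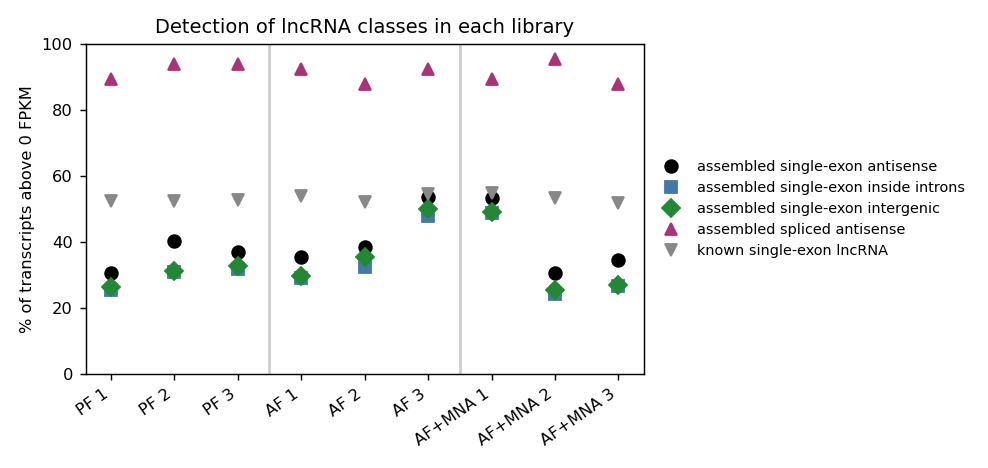
Percentage of the transcripts of each lncRNA class with a value above 0 FPKM (vertical axis) in each of the 9 libraries (horizontal axis, numbered by replicate), with grey lines between the groups. Single-exon antisense transcripts (black) were detected in 30.5% to 40.2% of cases in 7 libraries and in 53.7% and 53.3% in AF replicate 3 and AF+MNA replicate 1.

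A value of 0 did not always go with few reads elsewhere. Of the 946 transcripts, 917 were listed at 0 in at least 1 library, and in 177 of these (18.7% of all) the libraries with a value had a median of at least 50 reads. In 79 the median was at least 100 reads, and in 6 at least 500. A value of 0 is therefore written as listed at 0, and no ratio of means is given against a group listed at 0. The coefficients given for such transcripts are differences of mean log2(FPKM + 1) and no measure of a fold.

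The 8 transcripts with the highest means show how differently stable they were. The transcript opposite Gm26573 (MSTRG.31302.1, 266 bases, inside an intron of the zinc finger gene Zfp981 on chromosome 4) was listed at 7.08, 10.5 and 8.96 FPKM in PF, at 17.8, 10.6 and 13 in AF and at 9.60, 7.67 and 11.9 in AF+MNA. AF replicate 1 was the highest, and the AF libraries lay above the PF libraries by a narrow margin. The coefficient of AF against PF was 0.57 ± 0.24 (SE) on the log2(FPKM + 1) scale, and its log2 ratio of 0.64 missed the fold threshold used below (limma with Benjamini-Hochberg adjustment, adjusted p = 0.598). Gm26573 itself was listed at 0.08 FPKM or less in every library. The transcript opposite Slc39a5 (MSTRG.5981.1), a zinc transporter, lay inside an intron of Ankrd52 and was listed at 6.86, 8.81 and 5.08 in PF, at 7.11, 6.09 and 6.65 in AF and at 6.99, 6.19 and 5.31 in AF+MNA. All 3 groups overlapped. Its highest value was 1.73 times its lowest, where the 29 transcripts detected in every library had a median of 2.60 times.

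The transcript opposite Gm26804 (MSTRG.40921.1, in an intron of 2610005L07Rik) had 5.52, 5.73 and 7.69 FPKM in PF, at 7.53, 6.12 and 9.98 in AF and at 5.51, 4.26 and 4.12 in AF+MNA. All AF libraries were above all AF+MNA libraries. The log2 coefficient of AF+MNA against AF was -0.64 ± 0.24 (SE), which did not pass the fold threshold (limma with Benjamini-Hochberg adjustment, adjusted p = 0.591). Opposite Echdc2, a mitochondrial enoyl-CoA hydratase family gene, MSTRG.30362.1 was detected in every library at 3.06 to 5.93 FPKM, while Echdc2 was at 15.7 to 30.1 FPKM. Opposite the testis gene Klhl10, MSTRG.8281.1 was at 2.05 to 3.17 FPKM and Klhl10 at 0 to 0.2 FPKM. Opposite 1700064H15Rik, MSTRG.26630.1 was at 1.28 to 7.71 FPKM, and the gene was listed at 0.01 FPKM in AF replicate 1 and at 0 in the other 8 libraries. Thus 3 of the 8 faced a gene with almost no signal in these livers.

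The transcript opposite Prepl (MSTRG.19951.1) started 353 bases after the end of Slc3a1, a subunit of the cystine transporter, on the same strand. Its 3704 bases at chr17:85064589-85068292 were listed at 0, 3.34 and 6.00 FPKM in PF, at 5.10, 14.9 and 3.72 in AF and at 3.95, 5.04 and 4.84 in AF+MNA. PF replicate 1, at 0, and AF replicate 2, at 14.9, lay far from the other 7. Slc3a1 was at 20.04 FPKM in that PF library and at 23.8 in that AF library, and between 4.82 and 8.46 in the others. Prepl was at 3.58 to 7.42 FPKM throughout. In PF replicate 1 the antisense transcript was thus at 0 while Slc3a1 was high, and in AF replicate 2 both were high.

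A level for the opposite gene was found for 889 transcripts, and 516 of them (58.0%) had a lower mean than that gene. For 455 of the 889 the opposite gene had a mean under 0.5 FPKM. In the 429 pairs with at least 0.1 FPKM of the antisense transcript and 0.5 FPKM of the gene, the antisense level had a median of 23.0% of the gene's level, with quartiles of 9.59% and 46.3%. The minimum on the gene is higher than the median antisense level, so it bears on these percentages. It was above 100% in 34 pairs and under 1% in 15. With pairs limited to an antisense mean of at least 0.5 FPKM the median was 46.5%, because low transcripts are left out by that limit. Of the 889, 56 had a gene entry that holds several merged genes, the Slc39a5 entry among them, where it carries the name Nabp2.

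**Figure D3:**
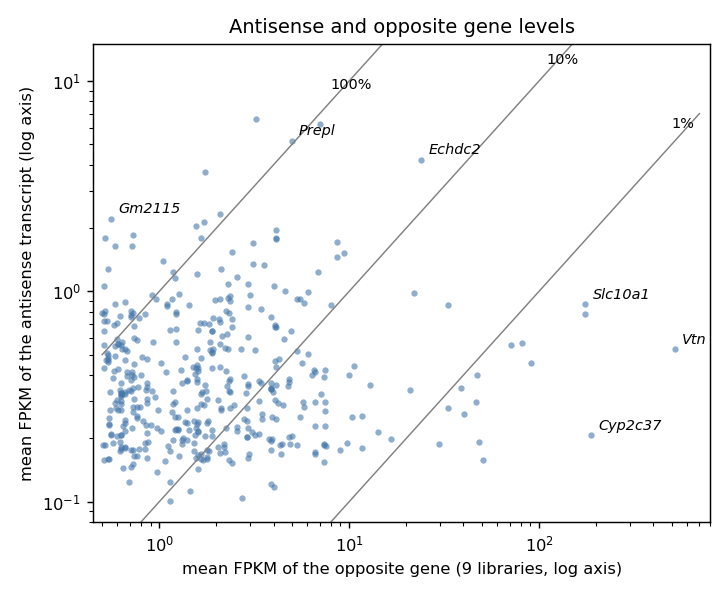
Mean FPKM of each antisense transcript (vertical log axis) against the mean FPKM of its opposite gene (horizontal log axis) over the 9 libraries, for the 429 pairs past both minimum levels, with lines at 100%, 10% and 1%. The antisense levels stay between about the same bounds at all gene levels, and the 8 pairs with a gene of at least 50 FPKM lie at 0.102% to 0.781%.

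The 8 pairs with a gene of at least 50 FPKM, which hold 7 genes, had antisense levels of 0.102% to 0.781% of the gene's. The lowest was the pair with Vtn, the plasma protein vitronectin, at 446 to 679 FPKM beside 0 to 2.46 FPKM of MSTRG.7675.1. At Slc10a1, 2 antisense transcripts next to each other (MSTRG.10207.1 and MSTRG.10208.1) had means of 0.872 and 0.778 FPKM, 0.496% and 0.443% of the gene. At the other end, pairs with a high percentage and both means of at least 0.5 FPKM faced Gm2115 (398%), the protease gene Prss48 (347%), Gm43989 (281%, with MSTRG.36969.18) and Gm27240 (240%). All 4 had a gene on their own strand, from Fah, which ended 190 bases before the transcript, to Sh3d19, Zfp384 and Ets1, in whose introns they lay. Fah, the last enzyme of tyrosine breakdown, was at 117 to 145 FPKM while the transcript after it was at 0 to 5.64 FPKM.

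Whether these transcripts differed between AF and PF was tested with limma on log2(FPKM + 1), fitted over the 18310 lncRNA transcripts whose mean reached 0.1 FPKM in the 6 libraries. A transcript passed the threshold where its unadjusted p was under 0.05 and its group means differed by more than 1 on the log2 scale. In bulk liver RNA, fewer cells of a type and less RNA per cell cannot be told apart. Of the 784 single-exon antisense transcripts tested, 17 passed (2.17%), beside 2.47% of all transcripts tested, so the share was that of the background. By direction, 9 were higher in AF and 8 lower, beside 1.41% and 1.06% of all. None had an adjusted p under 0.05 (limma, 0.0164% of all), while 19 had an unadjusted p under 0.05 (2.62% of all). Their median coefficient was 0.27 beside 0.14 over all transcripts tested. Without AF replicate 3 the median was -0.07 beside -0.09, and 34 passed, 24 higher and 10 lower, of which 13 were among the 17, while 3.63% of all transcripts passed. Without PF replicate 1, 25 passed, 6 higher and 19 lower, beside 2.27% of all. Of the 17, 16 were listed at 0 in at least 1 of the 6 libraries, 4 in all PF libraries and 5 in all AF libraries. Coefficients of such transcripts depend on the pseudocount of 1 FPKM.

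**Figure D4:**
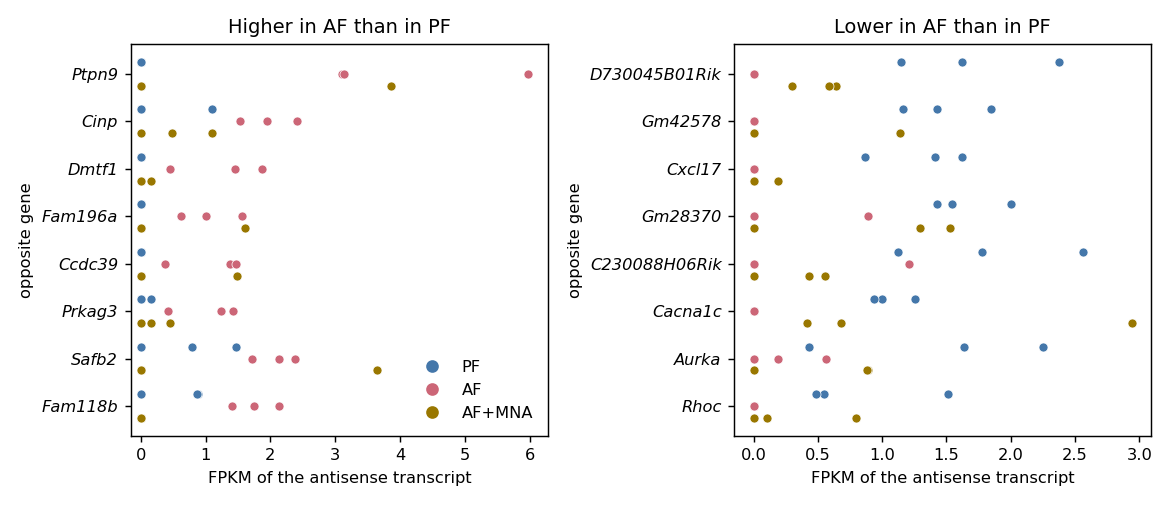
FPKM (horizontal axis) of the 16 antisense transcripts named for AF against PF, 1 row each by opposite gene, with 1 point for each library coloured by group. Left are 8 of the 9 transcripts higher in AF and right the 8 lower in AF, and in most rows 1 of the groups sits at 0.

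The transcript opposite Ptpn9, a tyrosine phosphatase, had the largest coefficient (MSTRG.44623.1, 504 bases at chr9:57062792-57063295, over the 3′ end of Ptpn9 and inside an intron of the lncRNA Gm10658). It was listed at 0 in all 3 PF libraries, at 3.11, 3.14 and 5.97 FPKM in AF, and at 3.85, 0 and 0 in AF+MNA. Every AF library was above every PF library, and 2 of the 3 AF+MNA libraries were listed at 0 as in PF. The log2(FPKM + 1) coefficient of AF against PF was 2.30 ± 0.31 (SE), and limma gave an adjusted p of 0.110, the lowest of these transcripts. Across the alternatives its adjusted p ranged from 0.030 with the libraries scaled to the same median to 0.583 with all 9 libraries in the fit. Ptpn9 was at 2.36, 3.61 and 2.22 FPKM in PF and 6.40, 5.37 and 3.20 in AF. Gm10658, on the strand of the antisense transcript, was at 6.09, 6.71 and 4.23 in PF and 1.35, 1.21 and 6.19 in AF. It was thus low in 2 of the AF libraries in which the transcript in its intron was present, and high in the third.

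Of the other transcripts higher in AF, 3 were also listed at 0 in all PF libraries. MSTRG.31766.1, opposite the cyclin D-binding transcription factor Dmtf1 and inside an intron of Tmem243, had 1.87, 0.447 and 1.46 FPKM in AF. MSTRG.40298.1, opposite Fam196a and inside an intron of Dock1, had 1.01, 0.623 and 1.56 FPKM in AF, and 0, 0 and 1.61 in AF+MNA. MSTRG.26775.1, opposite the ciliary gene Ccdc39 and 231 bases after Ttc14, had 1.37, 1.46 and 0.383 FPKM in AF. Dmtf1 stayed between 1.94 and 2.09 FPKM over these 6 libraries, so MSTRG.31766.1 passed the threshold without a like difference in the gene. The other transcripts opposite Dmtf1 had coefficients of 0.14 (MSTRG.31762.1), -0.19 (MSTRG.31763.1) and 0.08 (MSTRG.31767.1), and none of these passed.

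MSTRG.10795.1, over the 3′ end of the cyclin-dependent kinase 2-interacting gene Cinp, was at 1.09, 0 and 0 FPKM in PF, at 2.41, 1.54 and 1.94 in AF and at 1.09, 0.491 and 0 in AF+MNA. All AF libraries were above all PF and all AF+MNA libraries, with a coefficient of 1.20 ± 0.37 (SE, limma, adjusted p = 0.598). MSTRG.1243.1 lay opposite Prkag3, a regulatory subunit of AMP-activated kinase, and 2786 bases after Cyp27a1, the sterol 27-hydroxylase of bile acid synthesis. It was at 0.164, 0 and 0 FPKM in PF and 1.42, 1.24 and 0.417 in AF, while Cyp27a1 was at 105 to 173 FPKM. The transcripts over the 5′ end of Safb2 (MSTRG.19385.1) and inside Fam118b (MSTRG.43834.1) had coefficients of 0.90 and 0.85, and in both all AF libraries were above all PF libraries.

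Among the 8 transcripts lower in AF, 5 were listed at 0 in all AF libraries. MSTRG.34794.1, opposite the lincRNA D730045B01Rik, was at 1.15, 1.62 and 2.38 FPKM in PF and 0.645, 0.299 and 0.585 in AF+MNA (coefficient of AF against PF -1.42 ± 0.33, SE, limma, adjusted p = 0.598). MSTRG.27807.1, opposite the pseudogene Gm42578 and inside an intron of the histone methyltransferase gene Setdb1, was at 1.42, 1.85 and 1.16 FPKM in PF and 1.14, 0 and 0 in AF+MNA. MSTRG.37876.1, opposite the chemokine gene Cxcl17, was at 1.62, 1.41 and 0.867 FPKM in PF and 0, 0.191 and 0 in AF+MNA. These 3 and the Ptpn9 transcript passed the threshold under every alternative and with each library left out. The 4 were the only ones of the 16 named to do so.

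The other 2 at 0 in AF faced a calcium channel gene and a small GTPase gene. MSTRG.36795.1, opposite Cacna1c, was at 0.997, 0.934 and 1.25 FPKM in PF and 2.95, 0.682 and 0.415 in AF+MNA. MSTRG.28141.1, opposite Rhoc, was at 0.546, 0.485 and 1.51 FPKM in PF and 0.102, 0 and 0.797 in AF+MNA. The transcript opposite Aurka (MSTRG.26246.1) was at 0.429, 2.25 and 1.64 FPKM in PF and 0, 0.189 and 0.566 in AF. Its groups overlapped, as the lowest PF library was below the highest AF library. The transcripts opposite Gm28370 (MSTRG.10240.1) and C230088H06Rik (MSTRG.31332.1) had coefficients of -1.10 and -1.08.

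The opposite genes were tested in the same way over 12273 named gene entries with a mean of at least 0.5 FPKM. Of the 308 opposite genes tested in AF against PF, 15 passed (4.87%), beside 4.29% of all genes, with 11 higher and 4 lower in AF. In those directions 1.95% and 2.35% of all genes passed. None had an adjusted p under 0.05 (limma, 0.326% of all), and 33 had an unadjusted p under 0.05 (11.7% of all). Without AF replicate 3, 21 passed, beside 6.27% of all. In the 379 pairs with both partners tested, 11 antisense transcripts passed, 19 had an opposite gene that passed, and in 0 pairs did both pass. Of the 11, 9 had a coefficient of the same sign as their gene, as did 212 of the 379. In AF+MNA against AF, 17 of 404 antisense transcripts passed, 4 had an opposite gene that passed, and both passed in 1 pair, that with Gm27240. There 12 of the 17, and 231 of the 404, had coefficients of the same sign. Across pairs, the coefficients of transcript and gene had a Pearson's r of 0.15 in AF against PF and 0.11 in AF+MNA against AF, given as a description since pairs share libraries and opposite genes.

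The genes that passed with the lowest p-values, named after their values were seen, are given with their antisense transcripts. Cyp2c37 was at 72.6 ± 12.5 FPKM (SD, n = 3) in PF and 252 ± 83.5 (SD, n = 3) in AF (limma, adjusted p = 0.0798). Its antisense transcript MSTRG.22507.1 was at 0, 0.0797 and 0 FPKM in PF and 0, 0 and 1.78 in AF. The entry of the stress ligand gene Raet1e was at 2.59 ± 1.13 FPKM (SD, n = 3) in PF and 9.59 ± 1.73 (SD, n = 3) in AF (limma, adjusted p = 0.09996). It faced 5 transcripts inside an intron of Gm26740, and in PF only MSTRG.3783.1 had a value, 0.41 FPKM in replicate 3. In AF all 5 were listed at 0 in replicate 1, and their highest values in replicates 2 and 3 were 1.40 to 2.44 FPKM. Hsd11b1, the enzyme that reactivates glucocorticoids, was at 27.8 ± 4.93 FPKM in PF and 59.6 ± 13.2 in AF (SD, n = 3), and its antisense transcript MSTRG.3422.1 had a value in AF+MNA replicate 1 alone.

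The antisense level relative to its own opposite gene was tested as the difference of their log2(FPKM + 1) values over 435 pairs of all assembled antisense transcripts, spliced ones included. Of the 379 single-exon pairs, 24 passed with an unadjusted p under 0.05 and a coefficient above 1 or below -1 (6.33%), beside 6.44% of all pairs. As these 379 make up most of the 435, the share of all pairs is no independent reference. The ratio was higher in AF in 14 and lower in 10, beside 3.45% and 2.99% of all pairs, and 31 had an unadjusted p under 0.05 (8.97% of all). The lower ones included Cyp2c37 and 3 of the Raet1e pairs, where the gene had risen. An adjusted p under 0.05 was reached by 2 pairs, Prepl (coefficient 1.36, adjusted p = 0.00190) and Ptpn9 (coefficient 1.63, adjusted p = 0.00372), by limma with Benjamini-Hochberg adjustment (0.69% of all pairs). With a pseudocount of 0.1 these coefficients were 2.45 and 4.49. At Ptpn9 the adjusted call was that of MSTRG.44623.1 alone, since MSTRG.44618.1, which covers 94 coding bases of the same gene, had a coefficient of -1.28 (limma, adjusted p = 0.381). It was at 0, 1.43 and 0.47 FPKM in PF and listed at 0 in all AF libraries. Both adjusted calls were lost when the variance was moderated without an intensity trend (adjusted p = 0.396 and 0.391). They were also lost with all 9 libraries in 1 fit (0.228 for both), with a higher minimum level (0.453 and 0.104) and without moderation and with a library-size covariate (0.823 and 0.437). Without PF replicate 1, the library at 0, the Prepl coefficient was 0.54 with an adjusted p of 0.867, so that it rests on that library. The count of 24 was 14 without PF replicate 2 and 11 without PF replicate 3 (4.93% and 3.37% of all pairs). Without AF replicate 3, 17 pairs passed, beside 6.42% of all, and the adjusted p was 0.107 for Prepl and 0.473 for Ptpn9, and without AF replicate 2 it was 0.179 for Prepl.

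**Figure D5:**
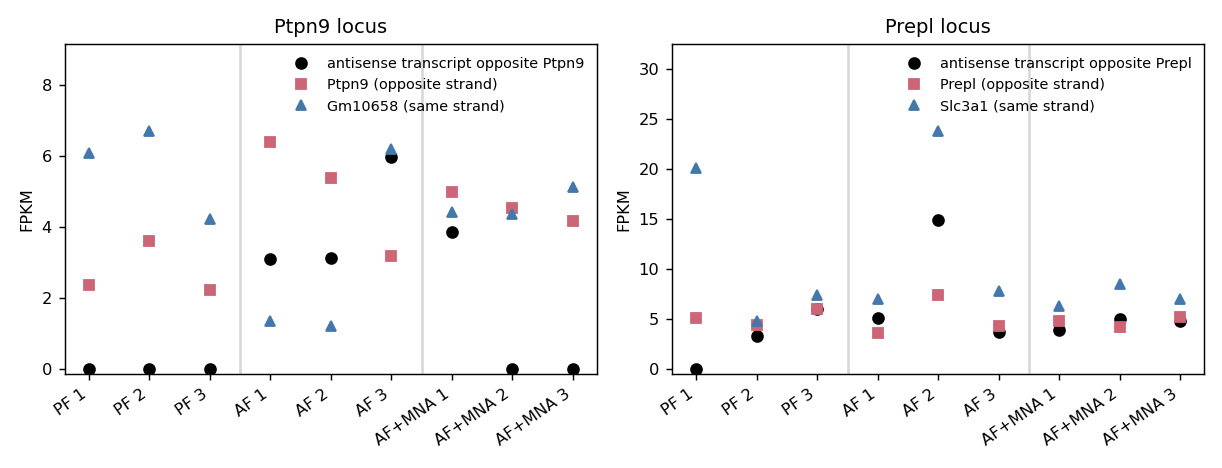
FPKM (vertical axis) in each of the 9 libraries (horizontal axis, numbered by replicate) of the antisense transcript (black circles), the gene on the opposite strand (red squares) and the gene on the same strand (blue triangles) at the Ptpn9 locus, left, and the Prepl locus, right. Left, the antisense transcript is at 0 in PF and present in AF, and Gm10658 is lowest in AF replicates 1 and 2; right, the antisense transcript and Slc3a1 are both highest in AF replicate 2, while in PF replicate 1 Slc3a1 is high and the antisense transcript is at 0.

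Between AF+MNA and AF, 865 of the single-exon antisense transcripts were tested among 19752 transcripts. The AF libraries are the same as in the comparison with PF, so both comparisons share them and are not independent. The threshold was passed by 24 (2.77%), beside 1.75% of all transcripts tested, with 5 higher and 19 lower in AF+MNA (0.633% and 1.11% of all in those directions). None had an adjusted p under 0.05 (0% of all), and 25 had an unadjusted p under 0.05 (limma, 1.81% of all). The median coefficient was -0.17 beside -0.07 over all. Without AF replicate 3 it was 0.17 beside 0.14 over all, and 19 passed, 7 of them among the 24, beside 2.11% of all. Without AF+MNA replicate 1 it was -0.36 beside -0.27 over all, and 18 passed, 12 of them among the 24, beside 1.64% of all. Without AF+MNA replicate 2 or 3 the count was 14 or 13, beside 1.54% or 1.35% of all. Of the 24, 23 had a 0 in at least 1 of the 6 libraries.

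Among the transcripts lower in AF+MNA, 2 of those named passed under every alternative and with each library left out. MSTRG.43834.1, opposite Fam118b and inside an intron of the signal recognition particle receptor gene Srpr, was at 0, 0.879 and 0.874 FPKM in PF, 1.41, 1.75 and 2.13 in AF, and listed at 0 in all AF+MNA libraries (coefficient -1.46 ± 0.33, SE, limma, adjusted p = 0.591). MSTRG.33694.1, opposite Srrm4 and shown above over 69 of its coding bases, was at 0.0748, 1.89 and 0.58 FPKM in PF, 0.955, 1.57 and 1.69 in AF, and also listed at 0 in all AF+MNA libraries. The lncRNA Srrm4os, in whose intron it lies, was at 0.957 ± 0.229 FPKM in AF and 0.44 ± 0.159 in AF+MNA (SD, n = 3), and it is itself the opposite gene of another of these transcripts. The AF and AF+MNA libraries of both transcripts did not overlap.

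The transcripts opposite Ptpn9, Cinp, Dmtf1 and Fam118b passed in both comparisons, higher in AF than in PF and lower in AF+MNA than in AF. Both comparisons share the AF libraries, so these are not separate results. At Ptpn9 the AF and AF+MNA libraries overlapped, as AF+MNA replicate 1 was above AF replicates 1 and 2. The transcript opposite Gm2115 and after Fah (MSTRG.39164.1) had the largest coefficient, -1.64 ± 0.50 (SE, limma, adjusted p = 0.591), with 3.99, 2.43 and 5.64 FPKM in AF and 0, 0 and 2.76 in AF+MNA. MSTRG.43733.1, opposite Gm27240 and inside an intron of the transcription factor gene Ets1, was at 1.70, 1.66 and 2.34 FPKM in AF and 1.40, 0 and 0 in AF+MNA. MSTRG.18978.1, opposite the proton pump subunit gene Atp6v1g2 and inside an intron of Nfkbil1, was at 2.37, 0.613 and 1.16 FPKM in AF and 0, 0.308 and 0 in AF+MNA. MSTRG.10208.1, the second of the transcripts opposite Slc10a1, was at 1.3, 1.02 and 1.81 FPKM in AF and 0, 0 and 0.912 in AF+MNA, while its neighbour MSTRG.10207.1 was at 0, 1.9 and 1.87 and at 0, 0.706 and 1.01. MSTRG.10208.1 passed the threshold and MSTRG.10207.1 did not, and the difference between them was not tested.

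Of the 5 transcripts higher in AF+MNA, 3 were listed at 0 in all AF libraries. They faced Cacna1c, named above, the ADP-ribosyltransferase gene Art3 (MSTRG.33048.1, at 1.5, 0.34 and 1.3 FPKM in AF+MNA) and Pard3bos1 (MSTRG.958.1, at 1.04, 1.20 and 0.385 FPKM). The other 2 faced Eno4 (MSTRG.22886.1) and Rac3 (MSTRG.9008.1), with 1 AF library above 0 each. The Rac3 transcript lay 2020 bases after Dcxr, a carbonyl reductase gene at 12.5 to 22.5 FPKM. Of the 305 opposite genes tested in AF+MNA against AF, 5 passed (1.64%), beside 1.98% of all genes, with 1 higher and 4 lower (1.03% and 0.949% of all). None had an adjusted p under 0.05 (limma, 0.0491% of all), and 18 had an unadjusted p under 0.05 (5.21% of all). The count was 8 without AF replicate 2, 10 without AF replicate 3 and 9 without AF+MNA replicate 1 (2.22%, 3.03% and 2.68% of all), and it moved to 21, 1 or 0 under other settings. The lowest p was that of the entry holding Golt1a and Kiss1, at 3.24 ± 0.331 FPKM in AF and 1.22 ± 0.106 in AF+MNA (SD, n = 3), named after its value was seen.

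Within pairs, antisense and gene levels were compared over the 9 libraries in the 136 pairs with both means of at least 0.5 FPKM. Pearson's r on log2(FPKM + 1) had a median of 0.11 and ranged from -0.67 to 0.89, with 79 above 0 and 57 below. By the two-sided exact permutation test over all orders of the libraries, 6 of the 136 had an unadjusted p under 0.05 (4.41%), and none had an adjusted p under 0.05 with either Pearson's r or Spearman's rho. The count was 9 without AF replicate 3, 6 without AF+MNA replicate 1 and 10 without AF replicate 1, and it was 10 with Spearman's rho. With values centred on their group it was 15. Centred values sum to 0 within each group, so orders across groups are not equally likely. The p-values then tend to be too small, and that count cannot be set against the 6.

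The highest r was that of Gnat1 and its antisense transcript MSTRG.45765.1. The transcript was at 5.53, 4.23 and 7.73 FPKM in PF, at 2.58, 3.81 and 2.92 in AF and at 2.80, 2.05 and 1.63 in AF+MNA, and Gnat1 at 2.79, 1.64 and 2.67, then 1.63, 2.16 and 1.55, then 1.53, 0.73 and 1.00. All PF values of the transcript were above all AF and AF+MNA values. Pearson's r was 0.89 (exact permutation p = 0.0014, adjusted p = 0.191) and Spearman's rho 0.90 (exact permutation p = 0.00203, adjusted p = 0.138). With each group centred on its mean r was 0.76, and without the 2 libraries farthest from the median of Gnat1 it was 0.92. The coefficient of AF against PF was -0.71 ± 0.25 (SE), and its log2 ratio of -0.91 missed the fold threshold (limma, adjusted p = 0.598). Gnat1 is a gene of rod photoreceptors, and over all of its covered exonic bases the transcript shared 25-base words with 393 other genes.

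Other high values were those of Slc17a1, a phosphate transporter gene of the liver and kidney (r = 0.83), RP23-429B12.3 (0.82) and Cinp (0.68). Without the 2 libraries farthest from the gene's median these were 0.55, 0.58 and 0.34. Leaving out a gene's most extreme values can lower r by itself, and the part of those libraries was not tested. Among the lowest were Tradd, an adaptor of the tumour necrosis factor receptor (-0.67), Gm43989 with MSTRG.36971.1 (-0.65), Slc10a1 with MSTRG.10207.1 (-0.57) and Immp1l (-0.49). Without the 2 farthest libraries r was -0.66 for Tradd, -0.24 for Gm43989, 0.04 for Slc10a1 and -0.45 for Immp1l.

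A gene on the same strand could be set beside 174 transcripts of at least 0.5 FPKM, and the correlations with it are given as a description since both share each library's depth. For the 118 transcripts inside an intron of such a gene the median r was 0.05, and for the 47 after one it was also 0.05, with r above 0.6 in 14 and 5 of them. The highest, named after its value was seen, was MSTRG.1468.1, listed opposite the sialidase gene Neu2 and inside an intron of Ngef, a guanine nucleotide exchange factor gene (r = 0.97). It was at 2.54, 2.37 and 3.51 FPKM in PF, at 1.71, 0.851 and 4.15 in AF and at 2.62, 2.64 and 3.11 in AF+MNA, and thus lowest in AF replicate 2 and highest in AF replicate 3.

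The opposite genes were set beside lists of the liver's main functions, and the share of all genes on those lists is not given here. Over 9 gene lists, 16 transcripts faced membrane transporter genes, 6 lipid and bile acid genes, 5 ribosome and translation genes and 4 amino acid genes. A plasma protein, a xenobiotic and an oxidative phosphorylation gene were faced by 1 each, while none faced a carbohydrate gene. On the list of transcription factors and nuclear receptors, 7 faced 3 symbols, Nr2c1, Zbtb5 and Nr6a1os. The last is an opposite-strand RNA of Nr6a1 that was matched by its symbol, and no receptor gene. With 0 to 15 transcripts tested on each list, and 2.47% and 1.75% of all transcripts passing, few calls could be seen on any list. None passed the threshold in AF against PF, and in AF+MNA against AF 1 lipid and bile acid member and 1 membrane transporter member did, both of them the Slc10a1 transcript MSTRG.10208.1, which is on both lists. Opposite Shmt1, a one-carbon enzyme of the cytosol at 19.7 to 42.3 FPKM, MSTRG.7099.1 was at 0 to 1.5 FPKM. Opposite Got2, the mitochondrial aspartate aminotransferase, MSTRG.42425.1 was at 3.34 FPKM in PF replicate 3 and at 0.789 FPKM or less in the other 8 libraries.

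A pair of transcripts on these lists, over the starts of their opposite genes, were detected in every library. MSTRG.5413.1, over the 5′ end of the orphan nuclear receptor gene Nr2c1, was at 1.20 to 1.87 FPKM in all 9 libraries, beside 1.75 to 2.86 FPKM of Nr2c1. MSTRG.6088.1, over the 5′ end of Eif4enif1, which encodes a transporter of the cap-binding protein eIF4E, was at 0.717 to 1.68 FPKM, beside 3.17 to 4.39 FPKM of the gene. Neither passed the threshold in either comparison. Over all 58 transcripts at the 5′ end of their opposite gene the median of the means was 0.460 FPKM, beside 0.279 FPKM for the 766 inside the gene, 0.339 FPKM for the 94 over the 3′ end and 0.526 FPKM for the 28 that span the gene.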

How the data were processed

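The authors deposited FPKM values of lncRNA transcripts and of genes, which they made with StringTie (1.3.4 in the submitters' processing notes, which also list cutadapt 1.9, HISAT2 and TopHat). The deposited lncRNA table also holds read coverage per library as StringTie writes it, and the authors' CPC score and CNCI score, at most -1.0 and below 0 for these transcripts. The genome build is not given in the sources used here. Of 7879 known transcripts 7841 were found in GENCODE M21 and 7706 had the same chromosome, start, end and strand, so GRCm38 positions were used. Opposite genes were taken from the table and matched by name (895), older symbol (22) or position (29), and their levels through the Ensembl transcripts of each gene entry.

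Libraries were grouped by their labels, 3 in each group. Nothing says whether RNA was pooled, and p-values measure the spread between these libraries. Tests used limma 3.58.1 (R 4.3.3) on log2(FPKM + 1) with an intensity trend and Benjamini-Hochberg adjustment, over transcripts of at least 0.1 and genes of at least 0.5 FPKM in the 6 libraries compared. All tests were two-sided. The limma fit of AF against PF was also run on simulated data with normally distributed values. Changes were placed there only in transcripts with a mean log2(FPKM + 1) above 1. Most of the transcripts described here lie below that level and are listed at 0 in some library, so that run does not bear on them. Correlations used Python 3.11.15 and scipy 1.17.1. The named transcripts were the 8 of highest mean, up to 8 past the threshold in each direction of each comparison by coefficient, the 5 highest and 5 lowest correlations, the 5 highest percentages, up to 3 per gene list and those facing the 3 genes with most members. The transcripts, gene lists and tests were chosen with earlier results of these data known. Authors' comparison columns and circRNA counts were not used. Some named transcripts are not reported here.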

Additional observations from a re-analysis of the deposited data

How the results depend on the processing

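Counts of transcripts past the threshold, AF against PF (17), were 33 with a pseudocount of 0.1 (3.62% of all transcripts), 32 with all 9 libraries in 1 fit (4.06%) and 11 with the fitted coefficient as the fold change (1.40%), and 12 to 34 with a library left out. For AF+MNA against AF (24) they were 40 with a pseudocount of 0.1 (3.03%), 12 with the fitted coefficient (1.07%) and 14 without moderation and with a library-size covariate (1.92%), and 13 to 22 with a library left out. For the opposite genes in AF against PF (15) they were 37 with any value above 0 (4.69% of all genes), 6 with a higher minimum level (3.58%) and 5 with the fitted coefficient (2.03%), and 12 to 21 with a library left out. In AF+MNA against AF (5) they were 21, 1 and 0 in the same order (2.70%, 1.10% and 0.81%). They were 3 without moderation and with a library-size covariate (0.777%). With a library left out they were 4 to 10, reaching 8 without AF replicate 2, 10 without AF replicate 3 and 9 without AF+MNA replicate 1. The ratio count (24) was 4 with a higher minimum level (6.67% of all pairs) and 11 without moderation and with a library-size covariate (3.22%). With a library left out it was 11 to 22, with 14 without PF replicate 2 and 11 without PF replicate 3. Pairs correlated at an unadjusted exact p under 0.05 (6) were 10 with Spearman's rho and 15 with an antisense minimum of 0.1 FPKM. They were 4 to 10 with a library left out, 10 being without AF replicate 1. With values centred on their group they were 15, but those p-values tend to be too small, as said above. The median percentage of the opposite gene (23.0%) was 46.5% with an antisense minimum of 0.5 FPKM and 30.0% in PF libraries only. Higher minimum levels test fewer features, and the other causes were not tested. Of the transcripts named for passing the threshold in either comparison, none reversed its direction under these alternatives. This was largely fixed in advance, as those listed at 0 throughout a group could not reverse, and those named had the largest coefficients. Of the 17, 5 were at 0 in all AF and 4 in all PF libraries. Of the 24, 5 were at 0 in all AF+MNA and 3 in all AF libraries. Replicate numbers did not pair the libraries, as the deviations of same-numbered libraries had correlations between -0.0434 and 0.0704. With the replicate block the 5 counts were 18, 22, 17, 4 and 24. No read counts were used, so values of few reads limit every comparison here.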

Other observations

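Of the 6 longest transcripts, MSTRG.30724.1 spans Mir6398 inside the bounds of Macf1, the gene of a large cytoskeletal linker protein, over 49425 bases on chromosome 4. It was at 1.71, 1.78 and 1.88 FPKM in PF, at 1.57, 1.74 and 1.77 in AF and at 1.76, 1.61 and 1.88 in AF+MNA. The groups overlapped, and its highest value was 1.20 times its lowest, the smallest ratio of the 29 transcripts detected in every library. MSTRG.27418.1, of 25450 bases opposite Prss48 and inside Sh3d19, was at 1.37 to 2.32 FPKM. MSTRG.33080.1, of 13964 bases over Mir1961 and inside an intron of Shroom3, was listed at 0 in 3 libraries, 1 of each group, and at 0.826 to 1.95 FPKM in the other 6. In all, 6 of the 946 transcripts faced an annotated miRNA gene, and no level of those miRNAs was used here.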
